A study of Homo sapiens with 6 samples.

Results

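The interferon regulatory factors are transcription factors that bind interferon-responsive DNA elements. IRF1, IRF2, IRF3, IRF5, IRF7 and IRF9 were followed here through every probe set that the platform annotation paired with the symbol of that gene alone. This rule found 22 of the 49395 probe sets on the array, namely 4 for IRF1, 1 for IRF2, 6 for IRF3, 6 for IRF5, 1 for IRF7 and 4 for IRF9. RNA came from BCPAP, a line grown from a human papillary thyroid carcinoma. The shCSF2 group (3 arrays) carried a lentiviral hairpin directed at CSF2, which encodes the growth factor GM-CSF, and the shCtrl group (3 arrays) a lentiviral hairpin with no target. Cells of both groups were under puromycin for 7 days, starting 48 hours after transduction. The labels call the arrays of a group biological replicates, and how many hairpins were used, and whether the cells were a pool or a clone, is not given in the sources used here.

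Members of this family share a DNA-binding domain at the amino end and act at different steps of interferon signalling. IRF3, IRF5 and IRF7 lie inactive in the cytoplasm until kinases downstream of nucleic acid and Toll-like receptor sensors phosphorylate them, after which they turn on interferon and cytokine genes. Interferon bound at its receptor then activates JAK kinases, and IRF9 joins STAT proteins in the complex ISGF3, which reads the interferon-stimulated response element (ISRE). IRF1 is made on demand, after interferon gamma through a gamma-activated site (GAS) and after inflammatory signals through NF-kappaB, and activates genes of antigen processing and antiviral defence. IRF2 binds the same DNA elements as IRF1 and is known mainly as its antagonist.

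The promoters of IRF1 and IRF9 are shown because IRF1 was the member that changed most and because both hold a GAS. The 250 bases before the transcription start are given 5′ to 3′ on the strand of the gene, from RefSeq on GRCh38.p14, with motif matches in capitals. The IRF1 window is chr5:132490774-132491023 on the minus strand and the IRF9 window is chr14:24161015-24161264 on the plus strand.
IRF1: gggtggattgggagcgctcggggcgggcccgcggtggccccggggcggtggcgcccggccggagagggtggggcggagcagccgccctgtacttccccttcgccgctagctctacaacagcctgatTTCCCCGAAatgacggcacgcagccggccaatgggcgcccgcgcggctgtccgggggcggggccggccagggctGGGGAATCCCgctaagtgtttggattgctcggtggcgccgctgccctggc
IRF9: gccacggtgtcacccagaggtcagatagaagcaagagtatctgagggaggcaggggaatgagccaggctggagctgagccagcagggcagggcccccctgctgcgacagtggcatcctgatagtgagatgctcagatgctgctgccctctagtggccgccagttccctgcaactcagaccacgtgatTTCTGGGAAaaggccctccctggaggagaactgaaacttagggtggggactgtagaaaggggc
Capitals in IRF1 mark a GAS (TTCCCCGAA), which begins 124 bases before the start, and an NF-kappaB site (GGGGAATCCC), which begins 50 bases before it. Capitals in IRF9 mark a GAS (TTCTGGGAA), 63 bases before the start. Both strands were searched for the GAS (TTCNNNGAA), the ISRE core (GAAA repeated after a gap of 2 bases) and the NF-kappaB consensus, and the matches found do not overlap each other. Of 35116 promoter windows of this length, 6.57% hold the GAS letters, 3.02% the ISRE core and 9.96% the NF-kappaB consensus. The 4 IRF5 windows in the table hold none of the 3 motifs. A match is a description of the letters and was not tested for binding. IRF2, IRF3 and IRF7 have no entry in the promoter table used here.

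On the deposited log2 scale the 6 arrays had medians from 5.77 to 5.79. With 0 probe sets paired with CSF2, its level is not analysed here and gave no check of the groups. Of the markers looked at, the thyroid factor gene PAX8 (mean log2 value 8.07 in shCSF2 and 8.11 in shCtrl cells) and the keratin genes KRT7 and KRT18 were bright, while those of thyroglobulin (TG), the TSH receptor (TSHR), KRT19 and E-cadherin (CDH1) were below the median of the arrays. COL1A1, a collagen gene of fibroblasts that carcinoma cells can also express, was lower in shCSF2 cells by its brightest probe set (6.34 ± 0.02 against 7.27 ± 0.08, mean ± SD, n = 3). Only 1 of its 5 probe sets was called. It was the only 1 of 5 fibroblast markers that was called. The sum of the 5 markers, by brightest probe sets, lay at 7.25 to 7.36 in shCSF2 and 7.83 to 7.96 in shCtrl cells (log2 of the sum). NKX2-1, another thyroid factor gene, and KRT8 were also called lower. The sum of 6 thyroid markers lay at 10.03 to 10.08 in shCSF2 and 10.32 to 10.33 in shCtrl cells, with no overlap. Only 1 of these 6 was called, NKX2-1, which was also the brightest of them and so weighs most in the sum. Of 3 endothelial markers PECAM1 and CDH5 lay above the array median, 0 were called, and the sums overlapped (7.66 to 7.78 and 7.76 to 7.88). All 7 measured leukocyte markers, PTPRC among them, lay below that median, and their summed level overlapped between the groups (6.46 to 6.61 in shCSF2 and 6.51 to 6.61 in shCtrl cells, log2 of the sum). The 3′ minus 5′ signal of the GAPDH control probe sets differed by 0.02 on the log2 scale between groups that did not overlap, and that of ACTB by 0.02 between groups that did (exact two-sided permutation p = 0.1 and p = 0.6, where 0.1 is the smallest value 3 arrays against 3 allow). The part of these shifts in the results was not tested. In RNA from whole cultures, a change in every cell and a change in the share of cells that express a gene cannot be told apart.

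In shCSF2 cells IRF1 rose, its antagonist IRF2 fell, and IRF3 rose by a small amount, whereas IRF5, IRF7 and IRF9 did not pass the test. By limma with Benjamini-Hochberg adjustment over all 49293 probe sets that are not controls, 8 of the 22 member probe sets passed an adjusted p of 0.05 in the higher direction and 1 in the lower. Over the array as a whole 29.1% of probe sets were called, 15.3% higher and 13.8% lower. The 8 were 3 of the 4 for IRF1 and 5 of the 6 for IRF3, and the 1 was that of IRF2. After another quantile normalization the split was 6 higher and 3 lower. The count higher was 5 without shCSF2 replicate 1, without shCSF2 replicate 3 or without shCtrl replicate 1, through the loss of IRF3 calls. Values of different probe sets are not compared with each other as levels, since each has its own probes.

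The transcript of IRF1 was about 1.8-fold more abundant in shCSF2 cells by its brightest probe set. Probe set 11716733_at read 8.44, 8.34 and 8.37 on the 3 shCSF2 arrays and 7.52, 7.49 and 7.61 on the 3 shCtrl arrays (log2 values). All 3 shCSF2 arrays were high, and the lowest of them lay 0.73 above the highest shCtrl array. The log2 fold change, shCSF2 minus shCtrl, was 0.84 ± 0.05 (moderated SE, n = 3 arrays per group), a 1.80-fold rise with a limma adjusted p of 6.99e-05. Only 197 of the 49293 probe sets (0.400%) had a larger log2 rise.

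Probe set 11754035_a_at of IRF1 gave nearly the same response. It read 7.11, 7.15 and 7.12 in shCSF2 cells against 6.31, 6.21 and 6.40 in shCtrl cells, again with no overlap. Its log2 fold change was 0.82 ± 0.05 (SE, limma adjusted p = 0.000111). The difference in response between these 2 probe sets was 0.02, within the spread of the arrays (exact two-sided permutation p = 0.7).

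Probe set 11716734_at of IRF1, which the annotation ties to a RefSeq mRNA of the gene, also rose, but with wider spread. Its values were 6.34, 6.13 and 6.17 in shCSF2 cells and 5.42, 5.70 and 5.80 in shCtrl cells. The groups did not overlap, and the shCtrl arrays ranged more widely than the shCSF2 arrays. The log2 fold change was 0.58 ± 0.10 (SE), or 1.49-fold, with a limma adjusted p of 0.00627.

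Probe set 11761782_at was the exception among those of IRF1. It read 3.97, 3.95 and 3.86 in shCSF2 cells and 4.15, 4.03 and 3.79 in shCtrl cells, so that the groups overlapped. Its log2 fold change was -0.06, with a 95% interval from -0.27 to 0.15 (limma adjusted p = 0.678). Its signal was dim, with a mean above only 21.9% of the probe sets on the array. Its response differed from that of 11716733_at by 0.90 and from that of 11716734_at by 0.64, with no overlap between groups in either difference (exact two-sided permutation p = 0.1, the smallest possible, and adjusted p = 0.646 over all 42 pairs of probe sets of the same gene). With all 4 probe sets averaged the rise of IRF1 was 0.55 on the log2 scale.

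IRF2 is read by a single probe set, 11754330_a_at. Its values were 7.19, 7.22 and 7.18 in shCSF2 cells and 7.44, 7.43 and 7.54 in shCtrl cells. Every shCSF2 array lay below every shCtrl array, with a gap of 0.21 between the groups. The log2 fold change was -0.27 ± 0.04 (SE, limma adjusted p = 0.00362), so that the signal fell by 17.3%. The calls of IRF2 and of the 3 IRF1 probe sets that rose held whichever of the 6 arrays was left out.

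**Figure D1:**
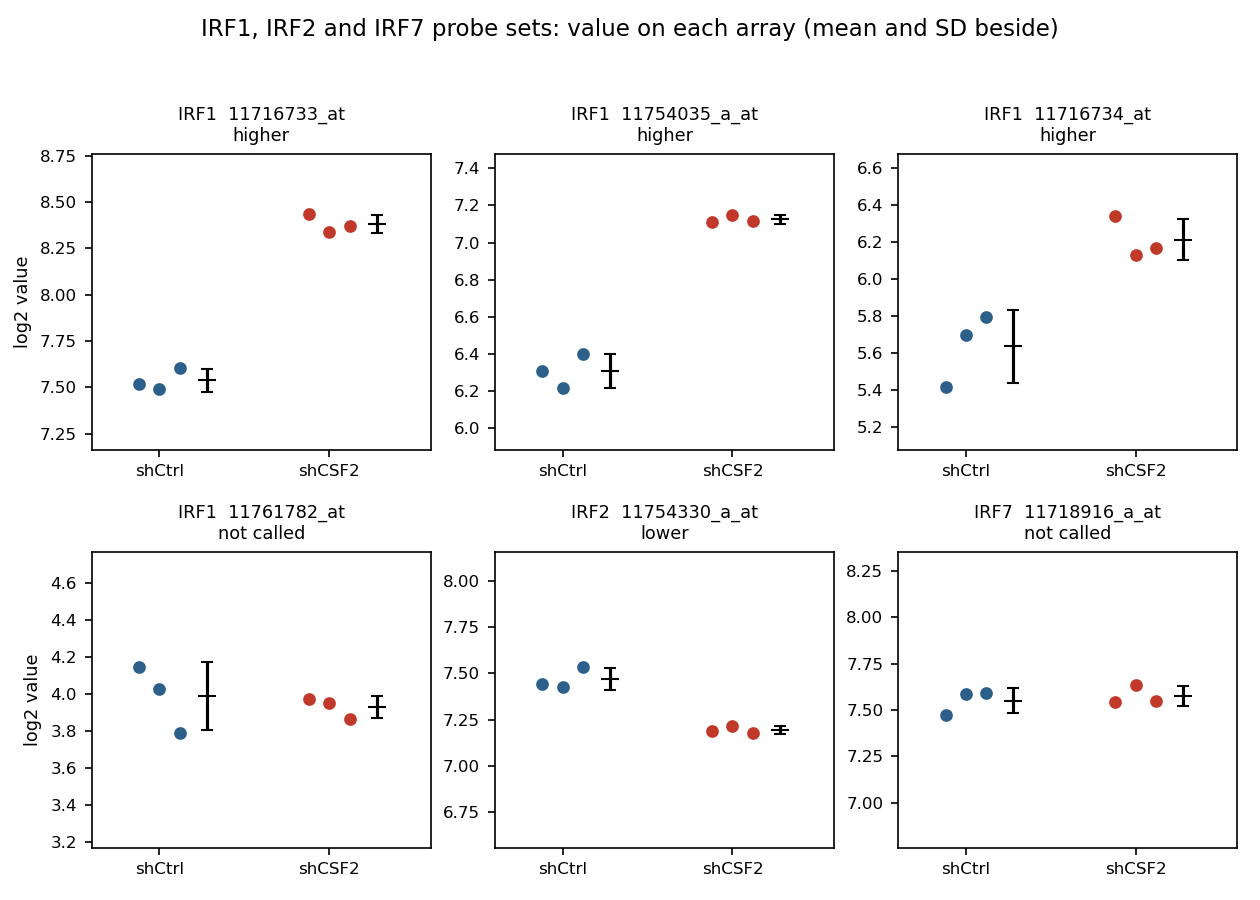
Log2 value (vertical axis) of each IRF1, IRF2 and IRF7 probe set on the 3 shCtrl arrays (blue points) and the 3 shCSF2 arrays (red points), with the mean and SD in black beside each group. All panels span the same log2 range, and the word under each name gives the limma call. The shCSF2 points lie above the shCtrl points in 3 of the 4 IRF1 panels and below them for IRF2, while the groups overlap for IRF7 and for the dim IRF1 probe set.

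IRF3, the constitutively made factor that sensor kinases activate, was slightly higher in shCSF2 cells. For each of its 6 probe sets the 3 shCSF2 arrays lay above the 3 shCtrl arrays, whereas 43.8% of all probe sets had groups that did not overlap, 21.3% with shCSF2 higher and 22.5% with shCSF2 lower. The log2 fold changes ranged from 0.13 to 0.22, and 5 of the 6 passed with limma adjusted p between 0.0111 and 0.0441. Probe set 11753806_x_at had the largest change. It read 6.05, 6.08 and 5.98 in shCSF2 cells and 5.83, 5.77 and 5.85 in shCtrl cells, a log2 fold change of 0.22 ± 0.05 (SE) or 1.17-fold. The gap between its groups was 0.13.

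Probe set 11756572_x_at of IRF3 read 7.53, 7.62 and 7.61 in shCSF2 cells and 7.40, 7.36 and 7.41 in shCtrl cells, a log2 fold change of 0.20 ± 0.04 (SE). Probe set 11745498_a_at read 7.73, 7.57 and 7.65 against 7.48, 7.41 and 7.46, also a change of 0.20. Probe set 11718672_x_at read 7.49, 7.42 and 7.50 against 7.27, 7.23 and 7.39, a change of 0.17. In the last of these the groups were only 0.04 apart, since the third shCtrl array lay near the shCSF2 arrays.

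Probe set 11745499_x_at, which had the highest mean of the 6 and stands for the gene in the list counts, read 7.63, 7.60 and 7.65 in shCSF2 cells and 7.46, 7.52 and 7.49 in shCtrl cells (log2 fold change 0.14 ± 0.04, SE). Probe set 11753805_a_at read 6.14, 6.14 and 6.15 against 5.96, 5.97 and 6.11, and its change of 0.13 did not pass (limma adjusted p = 0.104, 95% interval 0.01 to 0.25). Among the 15 pairs of IRF3 probe sets no difference in response had separate groups, and the largest was 0.09. Averaged over its probe sets, IRF3 changed by 0.18.

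The IRF3 calls lie close to the threshold. Probe sets 11756572_x_at and 11753806_x_at passed whichever of the 6 arrays was left out, whereas 11745499_x_at passed in 0, and 11745498_a_at and 11718672_x_at in 1 each. Of the 6 probe sets 4 carry the suffix x, which the manufacturer gives to sets with probes that can also match other sequences, and probe sets of the same gene may share probes, so they are not independent readings. BCL2L12, a BCL2-family gene whose RefSeq span overlaps that of IRF3, changed by -0.05 ± 0.04 (log2 fold change ± SE) and did not pass.

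IRF7, which amplifies the type I interferon response and is itself an interferon-induced gene, has 1 probe set, 11718916_a_at. It read 7.54, 7.64 and 7.55 in shCSF2 cells and 7.47, 7.59 and 7.59 in shCtrl cells. The groups overlapped, and the log2 fold change was 0.02 ± 0.05 (SE, limma adjusted p = 0.761) with a 95% interval from -0.10 to 0.15. Its sign turned after another quantile normalization.

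IRF5, best known for driving inflammatory cytokine genes in myeloid cells, did not pass with any of its 6 probe sets (limma adjusted p from 0.220 to 0.445, and 0 with an unadjusted p under 0.05). Its brightest probe set, 11726686_a_at, read 7.19, 7.21 and 7.14 in shCSF2 cells and 7.26, 7.33 and 7.21 in shCtrl cells. The groups just overlapped, with a log2 fold change of -0.09 and a 95% interval from -0.19 to 0.02. The changes of the 6 ranged from -0.11 to 0.13, with 4 negative and 2 positive. Both positive values came from dim probe sets, 11752974_a_at and 11726687_a_at, whose means lay above 25.0% and 20.0% of probe sets on the array. For 11726685_a_at alone the groups did not overlap, with 4.29, 4.32 and 4.28 in shCSF2 and 4.34, 4.36 and 4.33 in shCtrl cells. The response of 11726687_a_at differed from that of 11746801_x_at by 0.23, with no overlap (exact two-sided permutation p = 0.1, adjusted p = 0.646), and no other pair of IRF5 probe sets was separate. Probe set 11746801_x_at read 5.82, 5.68 and 5.82 against 5.83, 5.99 and 5.82, and 11762306_a_at changed by -0.08 ± 0.06 (log2 fold change ± SE). Without shCtrl replicate 2, probe set 11726687_a_at passed, with a log2 fold change of 0.25 (limma adjusted p = 0.0429).

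IRF9, the DNA-binding partner of STAT proteins in ISGF3, had small negative changes in all 4 probe sets, from -0.06 to -0.11 on the log2 scale, and none passed (limma adjusted p from 0.0971 to 0.407, with 2 of 4 at an unadjusted p under 0.05). Its brightest probe set, 11720209_at, read 8.84, 8.88 and 8.88 in shCSF2 cells and 8.95, 8.92 and 8.99 in shCtrl cells. For 3 of the 4 probe sets the shCSF2 arrays all lay below the shCtrl arrays, and for 11746155_a_at the groups overlapped. Probe set 11746156_x_at had the largest change, with 8.02, 7.92 and 7.995 against 8.12, 8.05 and 8.11. Probe set 11720208_a_at read 7.10, 7.09 and 7.05 against 7.16, 7.17 and 7.21. These values depend on the set of probe sets tested. When probe sets below the median signal were left out, 3 of the 4 passed in the lower direction, the lowest limma adjusted p being 0.0267.

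**Figure D2:**
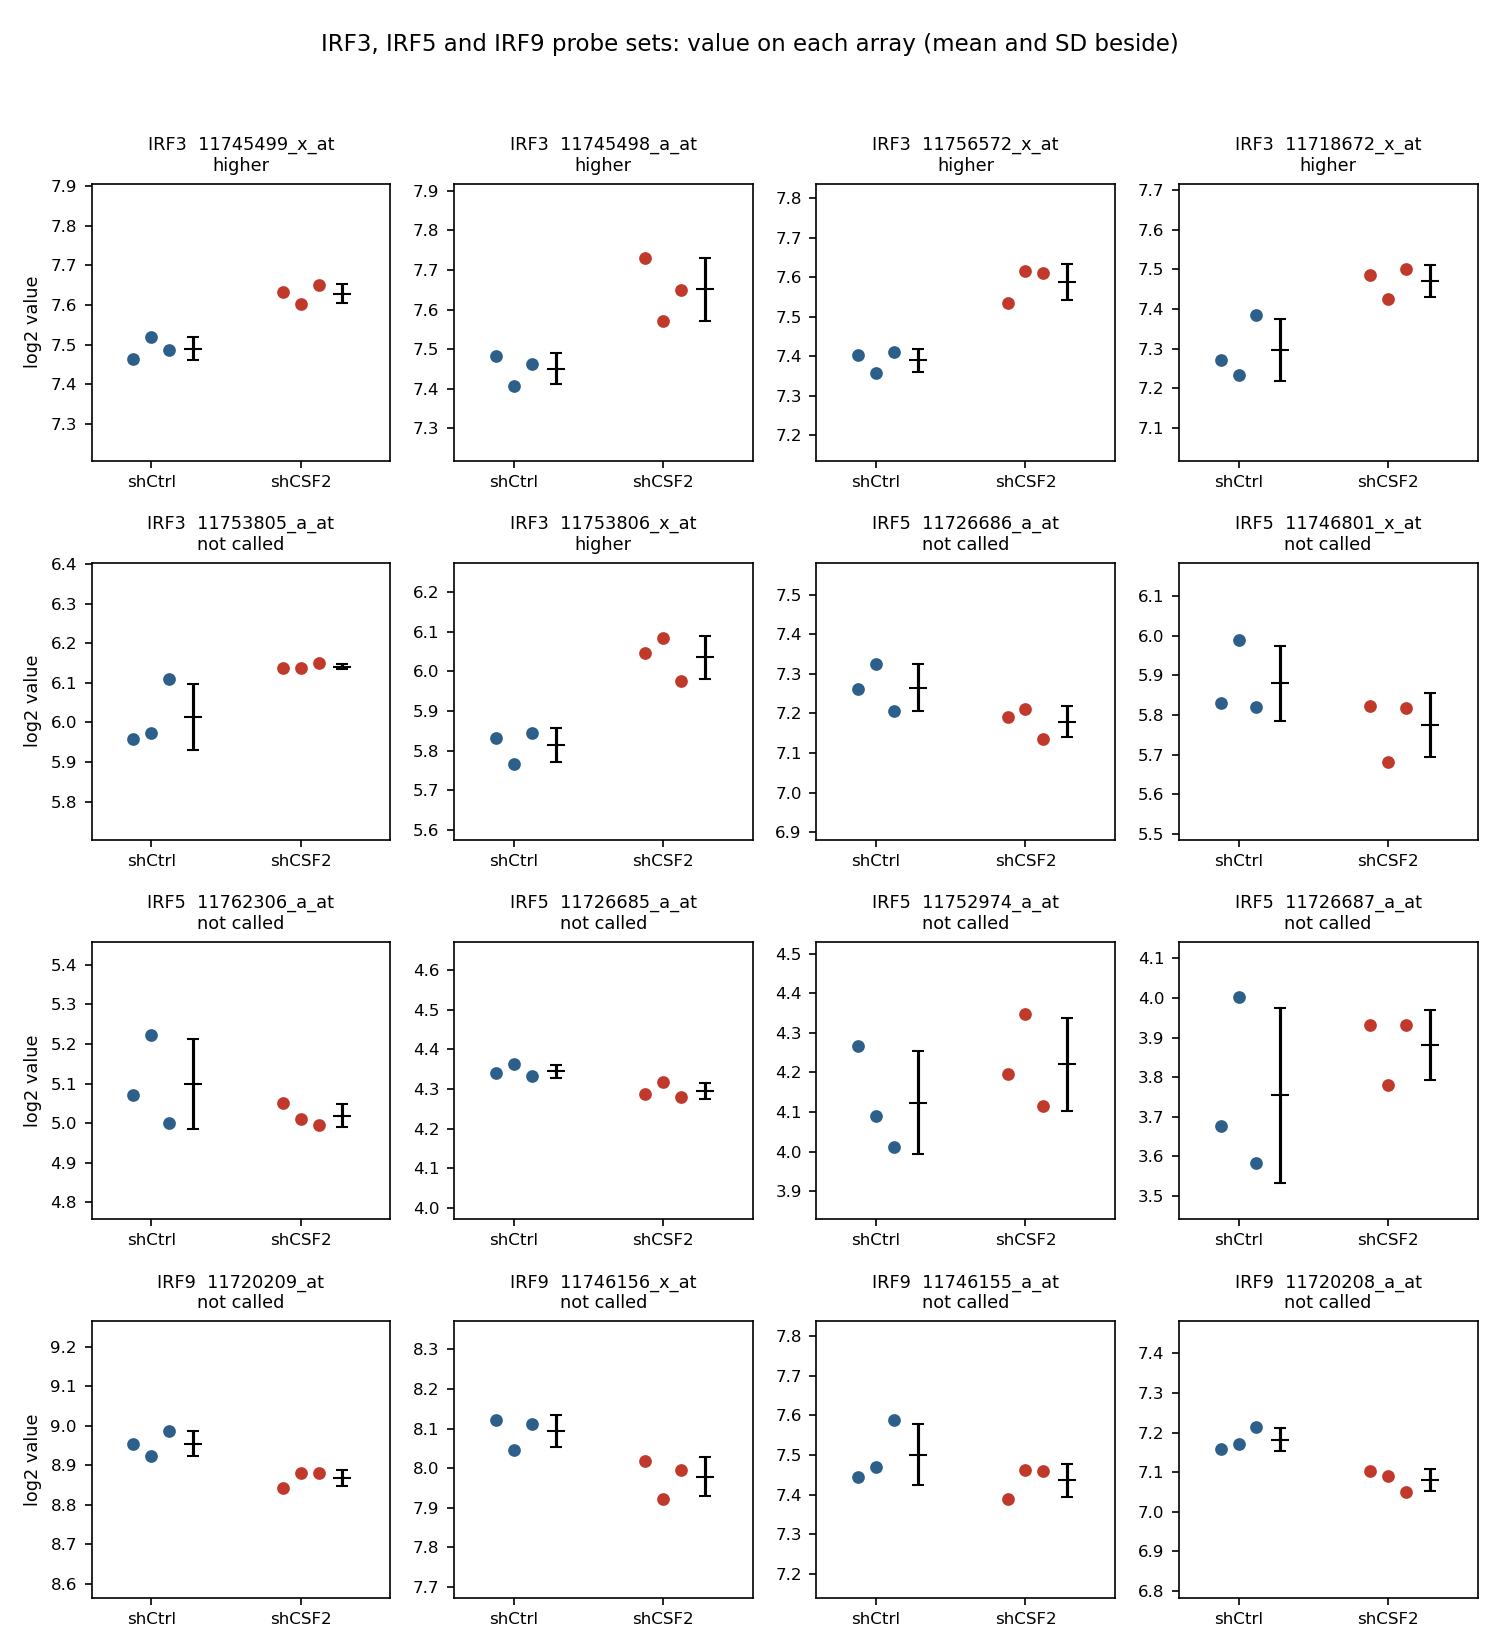
Log2 value (vertical axis) of each IRF3, IRF5 and IRF9 probe set on the 3 shCtrl arrays (blue points) and the 3 shCSF2 arrays (red points), with the mean and SD in black beside each group. All panels span the same log2 range, which is narrower than in the plot of IRF1. The red points lie above the blue points in all 6 IRF3 panels and below them in 3 of the 4 IRF9 panels, by margins of at most 0.13, and the groups overlap in 5 of the 6 IRF5 panels.

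**Figure D3:**
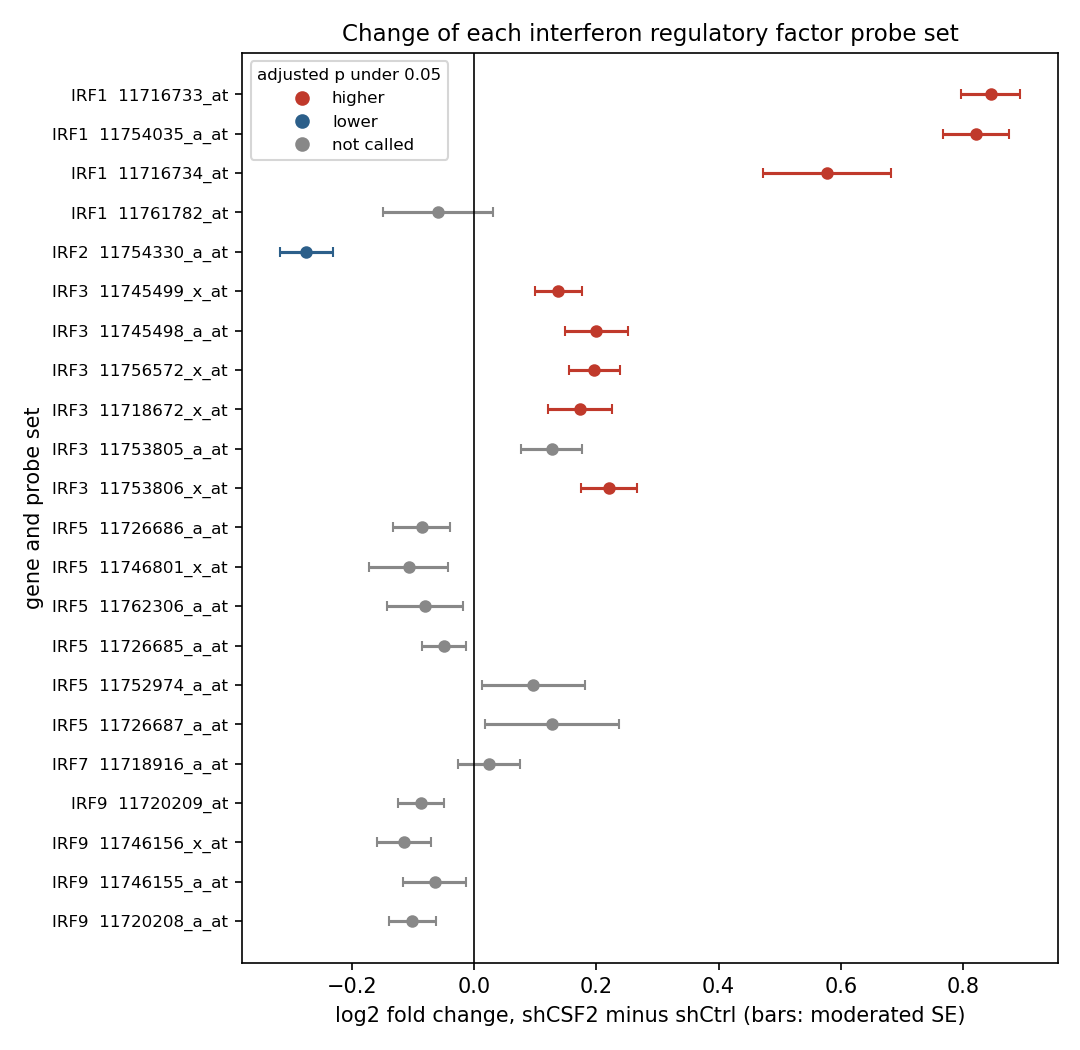
Log2 fold change, shCSF2 minus shCtrl (horizontal axis), of the 22 probe sets, with the moderated SE as bars and the limma call as colour. The IRF1 probe sets that rose, at 0.58 to 0.84, stand to the right of all others, IRF2 lies at -0.27, and the IRF5, IRF7 and IRF9 probe sets lie between -0.11 and 0.13.

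Other genes of the pathway were counted by the brightest probe set of each gene, and over all 18132 genes 30.4% were called, 15.8% higher and 14.6% lower. Among the sensors, adaptors and kinases that activate IRF3, IRF5 and IRF7, 8 of 22 rose and 3 fell. Their median change was 0.10 on the log2 scale, against -0.03 over all genes. The counts were 8 and 5 after another quantile normalization and 9 and 5 after cyclic loess. TLR4, the lipopolysaccharide receptor, read 5.92, 6.10 and 6.08 in shCSF2 and 4.87, 4.87 and 4.90 in shCtrl cells, a change of 1.15 ± 0.06 (SE), although 1 of its 3 probe sets rose and 1 fell and their mean changed by 0.31. The adaptor MYD88 rose by 0.67 ± 0.07, with 4 of its 5 probe sets higher and a mean change of 0.41. TBK1, the kinase that phosphorylates IRF3, rose by 0.40 ± 0.04, while IRAK1, a kinase on the Toll-like receptor branch to IRF5 and IRF7, changed by -0.40 ± 0.05. TANK and SLC15A4 also fell, by 0.36 and 0.31 on the log2 scale; these 2 were picked once their values were known.

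The interferon ligands themselves showed no call. Of 16 measured genes 0 passed with limma, also at an unadjusted p under 0.05. Their mean log2 values ran from 2.05 to 4.95, the highest for IFNA14, and all lay below the array medians of 5.77 to 5.79. At such dim signals the lack of a call does not show that the ligand genes were unchanged. Without shCtrl replicate 2 the count called lower was 1. IFNA14 read 4.97, 5.07 and 4.81 in shCSF2 and 4.86, 4.92 and 5.09 in shCtrl cells, and IFNA4 changed by 0.16 ± 0.14 (SE). IFNB1, the gene of interferon beta, picked once its value was known, had means of 2.85 in shCSF2 and 2.76 in shCtrl cells.

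Of 9 measured genes of interferon receptors and JAK kinases, 0 rose and 2 fell by the brightest probe set (median change -0.07, log2). IFNAR1, a chain of the type I interferon receptor, picked once its values were known, changed by 0.10 ± 0.05 (SE) by that probe set and did not pass, but 3 of its 4 probe sets were called higher. By the mean of its probe sets it changed by 0.26 (limma adjusted p = 0.00309) and by the most variable by 0.40 (limma adjusted p = 0.0192). IFNGR2, a chain of the interferon gamma receptor, read 9.39, 9.36 and 9.37 in shCSF2 and 9.58, 9.55 and 9.57 in shCtrl cells, a change of -0.20 ± 0.04 (SE, limma adjusted p = 0.00656). IFNLR1, the interferon lambda receptor, changed by -0.28 ± 0.08 with a limma adjusted p of 0.0415, and kept its call with only 1 of the 6 arrays left out, shCtrl replicate 3. With any other array left out the count of genes that fell was 1. No STAT gene is among the 9, so the STAT partners of IRF9 in ISGF3 are not analysed here.

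Among repressors, ubiquitin ligases and partners of these factors or of interferon signalling more widely, 6 of 13 rose and 1 fell (median 0.13). With 1 array left out the count that rose was 4, or 7 without shCtrl replicate 3. IRF2BP2 and IRF2BPL, relatives in the family of IRF2-binding proteins, moved in opposite directions. IRF2BP2 rose by 0.28 ± 0.04 (log2 fold change ± SE), with 4 of its 5 probe sets higher and 0.66 for the most variable, and IRF2BPL fell by 0.48 on the log2 scale, with both of its probe sets lower (limma adjusted p = 0.000477). IRF2BPL read 10.08, 10.17 and 10.04 in shCSF2 and 10.57, 10.60 and 10.55 in shCtrl cells, with no overlap. RBCK1, a ubiquitin ligase, rose by 0.32 ± 0.06 and TRIM21, an interferon-induced ubiquitin ligase, by 0.23 ± 0.04.

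Of 22 measured genes listed as IRF1 targets, 9 fell and 4 rose (median change -0.13, log2), so that most calls had the sign opposite to that of IRF1. TNFSF10, the gene of the death ligand TRAIL, read 5.43, 5.62 and 5.84 in shCSF2 and 6.49, 6.53 and 6.48 in shCtrl cells, a change of -0.87 ± 0.10 (SE) with all 3 probe sets lower. The guanylate-binding protein genes GBP2 (-0.80 ± 0.06) and GBP1 (-0.41 ± 0.05, all 5 probe sets lower) also fell, though only 1 of the 2 GBP2 probe sets was called and their mean changed by -0.49. VCAM1, an adhesion molecule of inflamed endothelium, rose by 0.80 ± 0.09, from 5.36, 5.11 and 5.35 in shCtrl to 6.16, 6.12 and 5.93 in shCSF2 cells. The remaining 3 that rose, picked once their values were known, were PSMB10, an immunoproteasome gene (0.22, called with only 1 of the 6 arrays left out), TAP2, a peptide transporter gene (0.21, or 0.32 by its most variable probe set), and CD274, which encodes PD-L1 (0.21, or 0.14 by the mean of its probe sets). The other genes that fell, also picked with their values known, were PSMB8 (-0.36), CASP1 (-0.32), TAPBP (-0.27), IL15 (-0.24), PSMB9 (-0.23) and TAP1 (-0.20). Only 1 of the 5 TAPBP probe sets was called, and IL15 had 1 probe set higher and 2 lower. With the most variable probe set of each gene the counts were 10 lower and 7 higher.

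Of the 10 genes listed as early IRF3 targets, 5 rose and 0 fell (median 0.13, with 5 of 10 at an unadjusted p under 0.05). IFIT2, an antiviral protein gene, read 8.21, 8.36 and 8.24 in shCSF2 and 7.40, 7.44 and 7.37 in shCtrl cells, a change of 0.86 ± 0.05 (log2 fold change ± SE). PMAIP1, the gene of the pro-apoptotic protein NOXA, rose by 0.37 ± 0.04 and IFIT3 by 0.29 ± 0.04. RSAD2, the gene of viperin, rose by 0.34 ± 0.08 at a dim signal (0.66 by its most variable probe set), and kept its call in 3 of 6 cases when an array was dropped. Among those that did not pass, picked once their values were known, ISG15 changed by 0.03, CXCL10 by 0.02 and IFIT1 by -0.05. Without shCSF2 replicate 2, or without shCtrl replicate 3, the count that rose was 3.

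The 23 targets of ISGF3 moved in both directions, with 9 higher, 5 lower and a median of 0.01. MX1, a GTPase that blocks viral replication, rose by 0.53 ± 0.04 (log2 fold change ± SE), from 7.34, 7.35 and 7.42 in shCtrl to 7.90, 7.86 and 7.93 in shCSF2 cells. XAF1 rose by 0.49 ± 0.05, with 6 of its 7 probe sets higher, and HERC6 by 0.48 ± 0.045. BST2, the gene of tetherin, changed by -0.55 ± 0.05, with 3 of its 4 probe sets lower. Without shCSF2 replicate 1, or without shCtrl replicate 3, the count that fell was 3.

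Of 6 measured cytokine genes listed as IRF5 targets, 3 rose and 0 fell (3 of 6 at an unadjusted p under 0.05). They were IL6 (0.50 ± 0.05, log2 fold change ± SE), the tumour necrosis factor gene TNF (0.37 ± 0.07) and IL12A (0.35 ± 0.05). IL6 read 10.46, 10.51 and 10.40 in shCSF2 and 9.91, 9.98 and 9.98 in shCtrl cells by its brightest probe set, but its other probe set was called lower, and their average changed by 0.07.

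**Figure D4:**
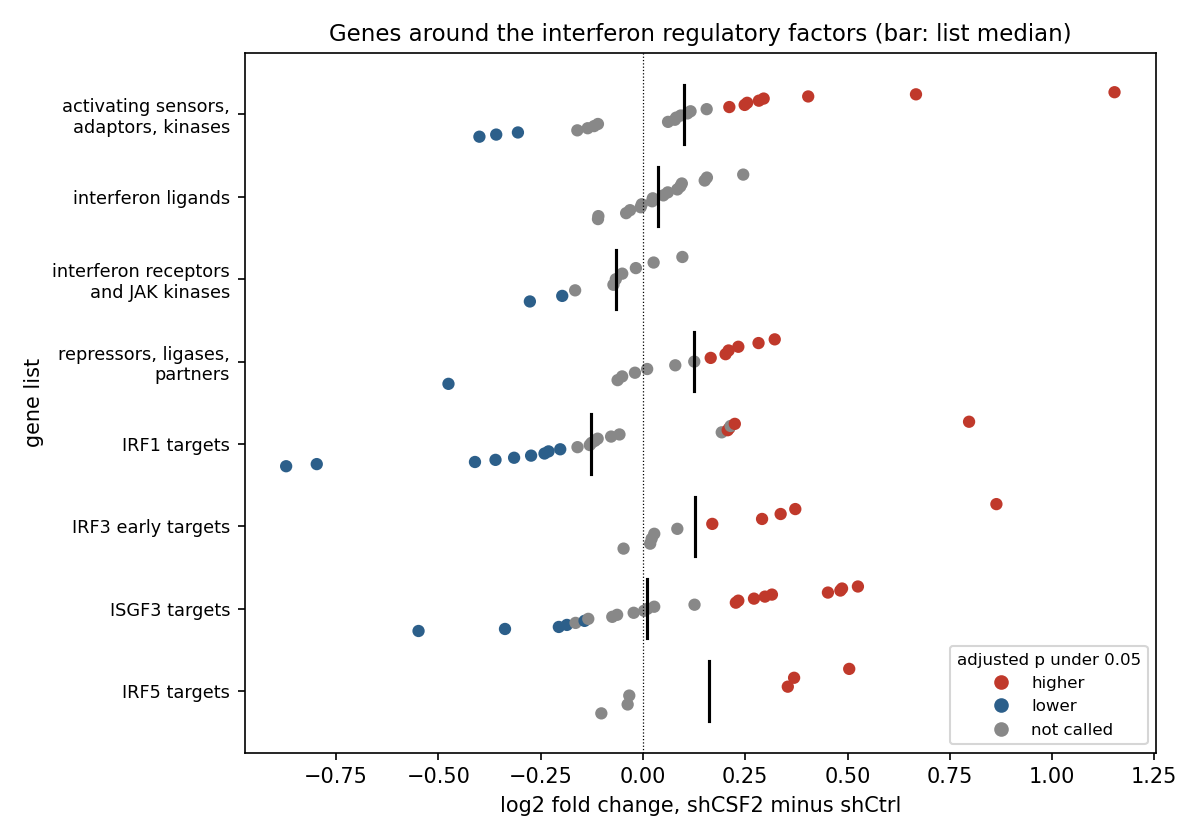
Log2 fold change, shCSF2 minus shCtrl (horizontal axis), of each gene in 8 lists around the interferon regulatory factors, by its brightest probe set and coloured by the limma call, with the list median as a black bar. Called genes lie on both sides of 0 among the sensors, adaptors and kinases, the repressors and partners, the IRF1 targets and the ISGF3 targets. They lie only on the positive side for IRF3 early targets and IRF5 targets, and only on the negative side for receptors and JAK kinases. Among the interferon ligands no gene was called.

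The genes whose values over the 6 arrays were most like those of IRF1 were OBI1, NCOA7, STAU1, ADAMTS6 and MFAP3, each with a Pearson r of 0.999 across arrays with the brightest IRF1 probe set. Their log2 fold changes ranged from 0.32 (OBI1) to 0.55 (NCOA7). Likeness here rests mainly on the difference between the groups, since 1762 of 9802 genes compared had an r above 0.95. For IRF2 the nearest were ZDHHC7, TXNDC12, METTL23, AVPI1 and TIMP3 (r from 0.998 to 1.00), and TIMP3, an inhibitor of metalloproteinases, changed by -0.57. For IRF3 they were EIF2B5, DCAF12, MRPL38, CBFA2T2 and RNF126 (r from 0.992 to 0.998).

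Genes that RefSeq lists next to the members did not pass. Of 12 neighbours 7 were measured, of which 0 were called by limma and 2 had an unadjusted p under 0.05. The lowest limma adjusted p was 0.0743, for TNPO3 beside IRF5, which changed by -0.11 ± 0.04 (log2 fold change ± SE).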

How the data were processed

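Total RNA (200 ng per array, per the labels' protocols) was hybridised to Affymetrix PrimeView arrays. The authors deposited 1 log2 value per probe set and array. RMA, oligo and limma stand in the submitters' processing notes without versions or roles, and their settings are not stated there. RMA summaries compress differences of dim probe sets. Arrays were grouped by title. The platform annotation paired 44988 of 49293 probe sets with 1 symbol (1832 several, 2473 not listed), and 102 controls were left out.

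limma 3.58.1 (lmFit, eBayes) in R 4.3.3 compared shCSF2 with shCtrl over all 49293 probe sets, with no block or filter and a Benjamini-Hochberg threshold of 0.05. The fit was tested on simulated data. Pairs of probe sets and control signals were compared by exact permutation tests in SciPy 1.17.1. The number of arrays limits precision, and probe-level files were not used here. Alternatives were 2 filters on dim probe sets, 3 scalings, trended variance, array weights, a replicate block, 1-symbol probe sets only, other summaries per gene and leaving out each array.

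Members and lists were chosen with earlier results of these data known. The text names all member probe sets, the 4 list genes with the largest change among those that passed (or the 2 brightest where none did), and the 5 genes most like a called member among those with a mean of at least 6. List genes lacking a probe set with that symbol alone were not analysed here.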

Additional observations from a re-analysis of the deposited data

How the results depend on the processing

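The calls of the 3 rising IRF1 probe sets and of IRF2 held under every alternative run. Calls close to the threshold did not, and the cause was not tested. The filters on dim probe sets both adjusted p over fewer of them and lowered the moderated SE, for IRF9 11720209_at from 0.0383 to 0.0342 and 0.0328. Leaving out probe sets with a mean under 5 gave 3 member probe sets called lower and 5 sensors, adaptors and kinases lower, and passed IRF3 11753805_a_at (log2 fold change 0.13), IRF9 11746156_x_at (-0.11) and IRF9 11720208_a_at (-0.10). Leaving out those below the median gave 4 and 5, and passed the same 3 and IRF9 11720209_at (-0.086). Quantile normalization again gave 3 and 5, passed IRF9 11746156_x_at (-0.15) and 11720208_a_at (-0.13), lost IRF3 11745499_x_at (0.11) and 11718672_x_at (0.14) and turned the sign of IRF7 (-0.0027). Cyclic loess gave 5 sensors, adaptors and kinases lower and lost IRF3 11745499_x_at (0.12). Variance trend with robust estimation gave 3 member probe sets, 5 sensors, adaptors and kinases and 4 receptors and JAK kinases lower, and passed IRF9 11720209_at (-0.086) and 11746156_x_at (-0.11). The mean of probe sets gave 1 receptor gene, IFNAR1, higher. The most variable probe set gave 1, again IFNAR1, higher, 2 repressors and partners lower and 7 IRF1 targets higher, and turned the sign of IRF5 (0.13).

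With the replicate block IRF3 11745499_x_at lost its call (0.14, limma adjusted p = 0.0735), and 7 member probe sets were higher and 1 lower. Deviations of same-numbered arrays from their group means correlated at 0.0333 to 0.0507, and those of differently numbered arrays at -0.0622 to 0.0302. The same-numbered values were the higher ones, but all were small. The main fit did not take the numbers as pairs, and whether the arrays were paired was not settled.

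With each array left out in turn the log2 fold changes ranged from -0.16 to 0.021 for IRF1 11761782_at, from 0.13 to 0.15 for IRF3 11745499_x_at, from 0.16 to 0.24 for 11745498_a_at, from 0.14 to 0.22 for 11718672_x_at, from 0.10 to 0.17 for 11753805_a_at, from 0.042 to 0.25 for IRF5 11726687_a_at and from -0.014 to 0.045 for IRF7. Counts ranged from 5 to 7 for member probe sets higher, from 0 to 1 for ligands lower, from 1 to 2 for receptors lower, from 3 to 4 for IRF3 early targets higher and from 3 to 4 for ISGF3 targets lower. Limits lie in 3 arrays per group, in dim probe sets and in probe sets of a gene that may share probes.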
